A study of Mus musculus with 6 samples.

Results

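Metallothioneins and zinc transporters were examined in the mouse uterus with and without P4, the standard abbreviation of progesterone. The 10 genes were taken by name: the metallothioneins Mt1, Mt2 and Mt3, the zinc-sensing transcription factor Mtf1, the zinc exporters Slc30a1 and Slc30a4, and the zinc importers Slc39a4, Slc39a8, Slc39a10 and Slc39a14. Every probe set annotated with 1 of these symbols and no other was used, which gave 21 of the 34945 probe sets with 1 symbol, and all 10 genes of the 18193 measured. These 21 probe sets were taken by annotation alone, but the 10 genes were chosen with earlier results of these data known. Where a gene had several, the one with the highest mean over all 6 arrays, P4 included, stood for it. Uterine horns of ovariectomized females, 8 weeks old and of mixed background, were collected after oil (3 arrays) or after P4 (3 arrays). All 6 arrays carried the GATA2 f/f genotype, by convention a floxed Gata2 allele on both chromosomes, and the labels name no recombinase. The labels give no dose, no time after treatment and no statement that each array came from a separate animal, and the p-values therefore reflect array-to-array spread that may be technical only. After ovariectomy the uterus is known to receive little progesterone of its own.

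Metallothioneins are small cysteine-rich proteins that bind zinc, copper and cadmium and buffer free zinc in the cytosol. Free zinc activates Mtf1, which binds metal response elements in the promoters of Mt1, Mt2 and Slc30a1, and glucocorticoids are a further known inducer of Mt1 and Mt2. Slc30 proteins (ZnT) move zinc out of the cytosol, across the plasma membrane or into vesicles, and Slc39 proteins (ZIP) move it into the cytosol.

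Promoter sequences are shown for Mt1, Mt2 and Slc30a4, which rose after P4, and for Mt3 and Slc30a1, whose differences did not pass the test. They come from RefSeq (build GRCm38.p6), run 5′ to 3′ from 250 bases before to 50 bases after the annotated gene start, and carry in capitals each match to the core of the metal response element, TGCACNC or TGCGCNC, on either strand. The table of promoters held 8 of the 10 genes, Slc39a8 and Slc39a10 with more than 1 start each, and none for Slc39a4 and Slc39a14.
Mt1 promoter, chr8:94178839-94179138, plus strand: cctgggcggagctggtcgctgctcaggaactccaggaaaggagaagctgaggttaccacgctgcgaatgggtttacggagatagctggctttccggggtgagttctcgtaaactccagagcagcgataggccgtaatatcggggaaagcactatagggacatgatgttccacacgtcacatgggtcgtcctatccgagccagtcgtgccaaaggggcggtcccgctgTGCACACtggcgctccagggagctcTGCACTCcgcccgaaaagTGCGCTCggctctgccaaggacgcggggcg
Mt2 promoter, chr8:94172368-94172667, plus strand: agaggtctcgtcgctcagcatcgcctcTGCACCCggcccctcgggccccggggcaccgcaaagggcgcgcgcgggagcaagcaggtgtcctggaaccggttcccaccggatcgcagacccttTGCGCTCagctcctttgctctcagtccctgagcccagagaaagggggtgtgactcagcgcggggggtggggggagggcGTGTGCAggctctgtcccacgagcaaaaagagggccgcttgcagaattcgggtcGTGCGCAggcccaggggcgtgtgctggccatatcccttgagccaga
Slc30a4 promoter, chr2:122702614-122702913, minus strand: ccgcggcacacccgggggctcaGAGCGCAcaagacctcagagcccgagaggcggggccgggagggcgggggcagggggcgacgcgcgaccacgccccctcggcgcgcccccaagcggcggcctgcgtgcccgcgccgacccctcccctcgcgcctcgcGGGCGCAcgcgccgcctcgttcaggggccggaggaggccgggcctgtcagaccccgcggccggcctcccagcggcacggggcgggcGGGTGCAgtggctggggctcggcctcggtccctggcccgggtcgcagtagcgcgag
Slc30a1 promoter, chr1:191906531-191906830, plus strand: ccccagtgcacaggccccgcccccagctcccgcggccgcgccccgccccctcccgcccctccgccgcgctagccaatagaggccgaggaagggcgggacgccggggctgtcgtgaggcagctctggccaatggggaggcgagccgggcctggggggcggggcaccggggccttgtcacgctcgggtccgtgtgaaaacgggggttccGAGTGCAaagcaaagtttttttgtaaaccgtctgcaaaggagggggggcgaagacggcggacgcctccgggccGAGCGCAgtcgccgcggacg
Mt3 promoter, chr8:94152357-94152656, plus strand: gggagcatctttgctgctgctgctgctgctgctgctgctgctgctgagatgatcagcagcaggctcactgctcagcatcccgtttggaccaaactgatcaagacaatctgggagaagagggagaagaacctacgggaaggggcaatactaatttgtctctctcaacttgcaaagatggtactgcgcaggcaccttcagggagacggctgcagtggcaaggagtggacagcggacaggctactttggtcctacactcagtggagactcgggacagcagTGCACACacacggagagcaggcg

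The Mt2 window held 4 matches, those of Mt1 and Slc30a4 3 each, that of Slc30a1 2 and that of Mt3 1. Of all 32851 promoter windows of this length 25.7% held at least 1 match, 7.11% at least 2, 1.97% at least 3 and 0.517% at least 4. The 3 matches in Mt1 began at -23, 3 and 21 from the annotated start, all on the plus strand. Matches beyond the window were not counted, and whether transcription begins at the annotated start was not tested. The window of Slc30a4 had a GC content of 81.7% and that of Mt1 60.7%, which bears on how often the GC-rich core occurs. The window of Mtf1 and both of Slc39a10 held no match, and 1 of the windows of Slc39a8 held 1. The steroid receptor hexamer AGAACA was present in 1 of these windows, that of Mtf1, against 19% of all windows. These are matches of letters within short windows and were not tested against the expression values.

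Mt1, Mt2, Slc39a14 and Slc30a4 rose after P4, and no member fell. At a limma adjusted p under 0.05, 4 of the 10 genes were higher and 0 lower (4 and 0 at an unadjusted p under 0.05). Among all 18193 genes 13% passed, 6.08% higher and 6.94% lower. At an unadjusted limma p under 0.05, 2165 of all genes were higher and 2679 lower. The same 4 genes were those whose 3 P4 arrays all lay above the 3 oil arrays, which held for 14.3% of all genes (31.8% of all genes had no overlap in either direction). With the array number as a block the count among the 10 stayed at 4, against 20.9% of all genes passing, 9.29% higher and 11.6% lower. The median log2 difference of the 10 genes was 0.25, beside -0.01 over all genes. Differences are P4 minus oil in log2(intensity + 16) ± SE, a scale that understates changes of dim genes, and intensities are linear, as mean ± SD of 3 arrays. In these tissue samples, more cells of a type and more RNA per cell cannot be told apart.

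**Figure D1:**
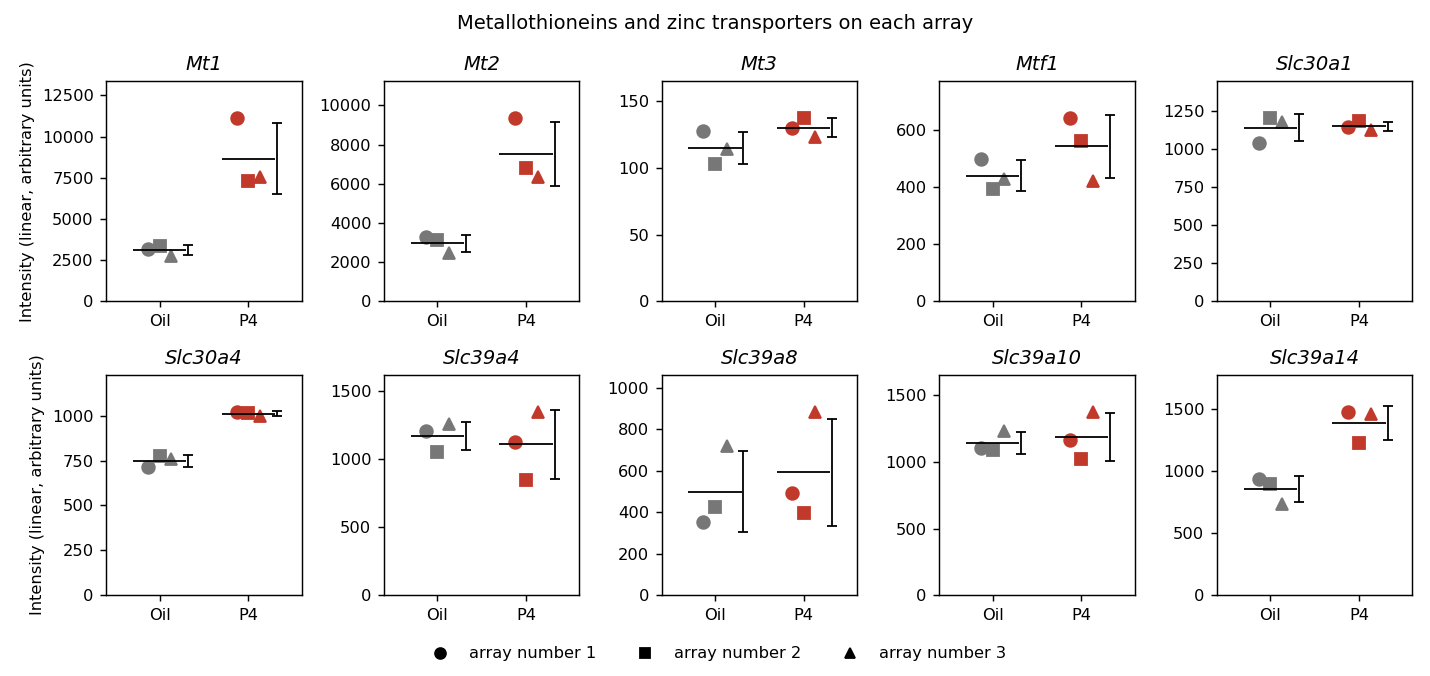
Linear intensity (vertical axis, from 0) of the probe set used for each of the 10 genes on the 3 oil arrays (grey) and the 3 P4 arrays (red). Marker shapes give the array number, horizontal lines the group means and bars the SD. Mt1, Mt2, Slc30a4 and Slc39a14 have no overlap between groups, and the other genes overlap.

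Mt1 had the largest difference of the 10 genes. Its intensity was 3203, 3341 and 2769 on oil arrays 1, 2 and 3 and 11143, 7298 and 7561 on the P4 arrays. The groups were far apart, with P4 array 1 standing highest. The means were 3104 ± 298 and 8667 ± 2148 (n = 3 each), a linear ratio of 2.79 and a log2 difference of 1.45 ± 0.16 (limma adjusted p 0.0019). The adjacent gene Mt2 read 3301, 3122 and 2486 after oil and 9369, 6790 and 6351 after P4. Again every P4 array lay above every oil array, and P4 array 1 was again the highest. Its means of 2969 ± 428 and 7503 ± 1630 gave a ratio of 2.53 and a log2 difference of 1.32 ± 0.16 (limma adjusted p 0.0028). By absolute log2 difference Mt1 exceeded 99.5% and Mt2 99.2% of all genes. Between arrays of the same number the Mt1 difference was 1.79, 1.12 and 1.44 and the Mt2 difference 1.5, 1.12 and 1.35, so array number 2 had the smallest rise of both genes.

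The Mt1 value comes from a probe set whose suffix (s_at) marks it as able to match transcripts of more than 1 gene. The other Mt1 probe set was much dimmer, with 76.6, 83.0 and 61.6 after oil and 144, 110 and 93.9 after P4. Its groups did not overlap either, but its difference of 0.54 ± 0.15 had an adjusted p of 0.0595 in the limma fit over all probe sets. In the same fit with the array number as a block it passed (0.00957). How much of the signal of the brighter probe set comes from Mt2 was not tested. Mt2 had a single probe set, with no such suffix.

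Mt3, the metallothionein known from brain, was dim, at 128, 103 and 114 after oil and 130, 138 and 123 after P4. Its groups overlapped, and its log2 difference of 0.16 ± 0.10 (95% interval -0.07 to 0.40) did not pass (limma adjusted p 0.369). The interval lies below those of Mt1 (1.08 to 1.83) and Mt2 (0.95 to 1.70).

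Mt1, Mt2 and Mt3 lie next to each other in RefSeq's gene order on chromosome 8, with Mt4, a metallothionein of stratified epithelium, beyond Mt3. The flanking genes were chosen after their values were seen, as the 3 nearest measured protein-coding genes on each side. Mt4 read 47.3, 52.1 and 51.3 after oil and 57.8, 83.7 and 67.7 after P4, without overlap, a difference of 0.36 ± 0.12 that missed the threshold (limma adjusted p 0.0967) and passed with the array number as a block (0.0424). Beyond Mt1, the nuclear pore gene Nup93 rose from 305 ± 22.2 to 589 ± 33.8 (0.91 ± 0.09, adjusted p 0.00115). Next to Mt4, Bbs2, a component of the ciliary BBSome, was lower (-0.59 ± 0.12, adjusted p 0.0169), a call kept in 2 of the 6 fits with 1 array left out (adjusted p up to 0.0773, without oil array 2). The other 4 flanking genes, Nudt21, Ogfod1, Slc12a3 and Herpud1, had differences between -0.08 and 0.11 that did not pass. The changes in this stretch thus ran in both directions.

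**Figure D2:**
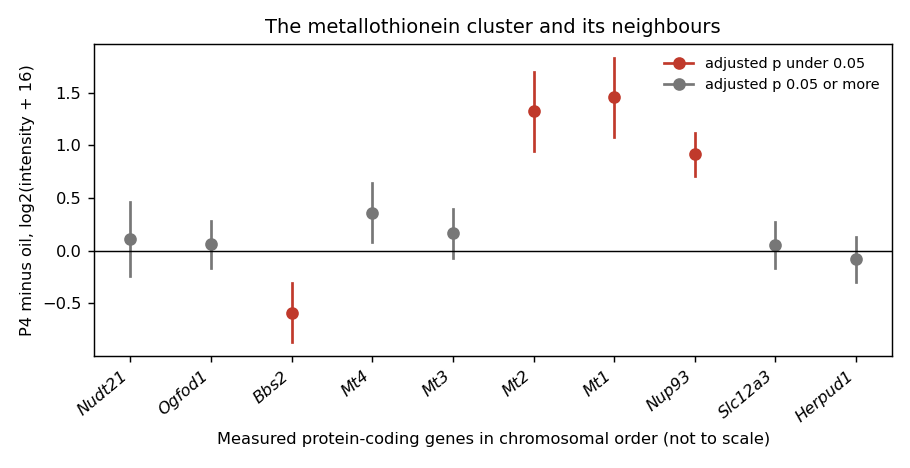
Log2 difference P4 minus oil (vertical axis) with 95% interval for the metallothioneins and the 3 nearest measured protein-coding genes on each side, in chromosomal order (horizontal axis, not to scale). Red marks a limma adjusted p under 0.05; Mt2 (1.32), Mt1 (1.45) and Nup93 (0.91) are higher and Bbs2 (-0.59) is lower.

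Mtf1, the zinc sensor that activates metallothionein transcription, gave different values by probe set. The probe set with the highest mean read 499, 392.3 and 428 after oil and 643, 562 and 423 after P4. The groups overlapped through P4 array 3, and the difference of 0.28 ± 0.16 (95% interval -0.09 to 0.65) did not pass (limma adjusted p 0.326). Of the other 4 probe sets, a dim one was higher, at 59.0, 54.5 and 49.5 after oil and 73.3, 70.7 and 89.3 after P4 (0.41 ± 0.11, adjusted p 0.0463 over all probe sets). A further pair, at 0.14 ± 0.08 and 0.14 ± 0.09, had no overlap but did not pass, and the dimmest had a difference of -0.16 ± 0.11. On the oil arrays alone the first of that pair had a higher mean (459) than the probe set used for the gene (440). The call on Mtf1 thus rests on 1 dim probe set of 5.

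**Figure D3:**
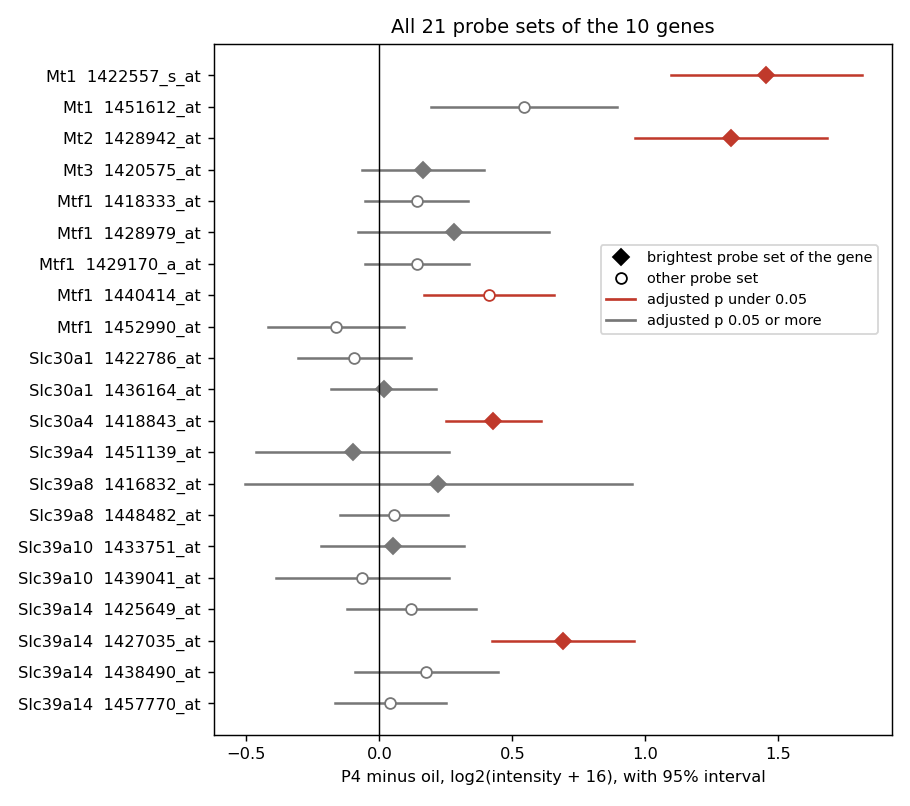
Log2 difference P4 minus oil (horizontal axis) with 95% interval for all 21 probe sets of the 10 genes. Filled diamonds are the brightest probe set of a gene, open circles the others, and red a limma adjusted p under 0.05 over all probe sets; 5 probe sets are red, all of them to the right of 0.

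Over all 34945 probe sets 10.1% passed, and 5 of the 21 did, all higher: 1 each of Mt1, Mt2, Mtf1, Slc30a4 and Slc39a14. Of all probe sets 5.08% were higher and 5.04% lower. The 3 P4 arrays lay above the 3 oil arrays in 8 of the 21 and in 13.8% of all probe sets (28.6% had no overlap in either direction). For Slc39a14 and Mt1 the brightest probe set passed and the dimmer ones did not.

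Among the exporters, Slc30a4, which loads zinc into vesicles and is defective in the lethal milk mouse, rose with little spread. It read 713, 778 and 757 after oil and 1024, 1017 and 998 after P4. The lowest P4 array stood well above the highest oil array, and the P4 mean was 1013 ± 13.6 (SD, n = 3). The log2 difference from the oil mean of 749 ± 33.2 was 0.43 ± 0.07 (limma adjusted p 0.00886). Slc30a1, the plasma membrane exporter and a known Mtf1 target, read 1040, 1208 and 1178 after oil and 1147, 1185 and 1128 after P4. All 3 P4 values lay within the range of the oil arrays, with a difference of 0.02 ± 0.08 (95% interval -0.17 to 0.21, adjusted p 0.937). Its dimmer probe set had -0.09 ± 0.09. The interval of Slc30a1 ends below the lower bound of Slc30a4 (0.26), and the difference between the genes was not tested.

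Among the member importers, Slc39a14, which carries zinc, manganese and non-transferrin iron, was the one that rose. It read 934, 894 and 736 after oil and 1477, 1226 and 1456 after P4, from 855 ± 105 to 1386 ± 139. The P4 arrays all lay above the oil arrays, with a ratio of 1.62 and a log2 difference of 0.69 ± 0.12 (limma adjusted p 0.00882). The 3 dimmer probe sets of Slc39a14 had differences of 0.04, 0.12 and 0.18, which did not pass, and with the mean of all 4 the gene missed the threshold (0.26 ± 0.07, adjusted p 0.0664). Only the brightest probe set therefore shows the rise.

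Slc39a4, the importer of epithelial zinc uptake, read 1202, 1053 and 1253 after oil and 1125, 845 and 1347 after P4 (-0.10 ± 0.16, 95% interval -0.47 to 0.27, limma adjusted p 0.78). Slc39a8, which carries zinc, manganese and cadmium, read 355, 424 and 720 after oil and 495, 396 and 886 after P4. On the log2 scale its difference had the largest SE of the 10 genes (0.22 ± 0.33, 95% interval -0.54 to 0.98, limma adjusted p 0.761). With the array number as a block the SE was 0.11 and the interval -0.04 to 0.48, and the difference again missed the threshold (0.229). Slc39a10, an importer of the plasma membrane, read 1105, 1088 and 1235 after oil and 1169, 1023 and 1379 after P4 (0.05 ± 0.12, 95% interval -0.22 to 0.32, adjusted p 0.857).

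These 3 importers shared their highest array. In both groups each was highest on the array numbered 3, a pattern chosen after its values were seen and present in 23.2% of all genes and in 3 of the 10 here. On the P4 arrays each was lowest on number 2, while on the oil arrays Slc39a4 and Slc39a10 were lowest on number 2 and Slc39a8 on number 1. The summed intensity of 11 epithelium markers was likewise highest on number 3 in both groups, at 18245, 17874 and 20739 after oil and 20726, 14551 and 22291 after P4. Single markers, named after their values were seen, differed in this. Krt8 and Epcam were highest on number 3 in both groups. Krt18 and Cldn3 were highest on oil array 2 and P4 array 1, and Krt19 on number 1 in both groups. The sum of 8 granulocyte markers was 800, 735 and 6756 after oil and 783, 7551 and 10100.4 after P4, high on both arrays numbered 3 and on P4 array 2. Most of it on number 3 was S100a8 (2950 after oil, 4860 after P4) and S100a9 (2738 and 4121). Csf3r and Cxcr2 were also highest on number 3 in both groups. Mpo, Elane, Ngp and Camp were, of the P4 arrays, highest on number 2. These single markers were named after their values were seen. The part of these cell types in the importer values was not tested. The differences of the 3 importers kept missing the threshold when both arrays of any 1 number were left out.

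**Figure D4:**
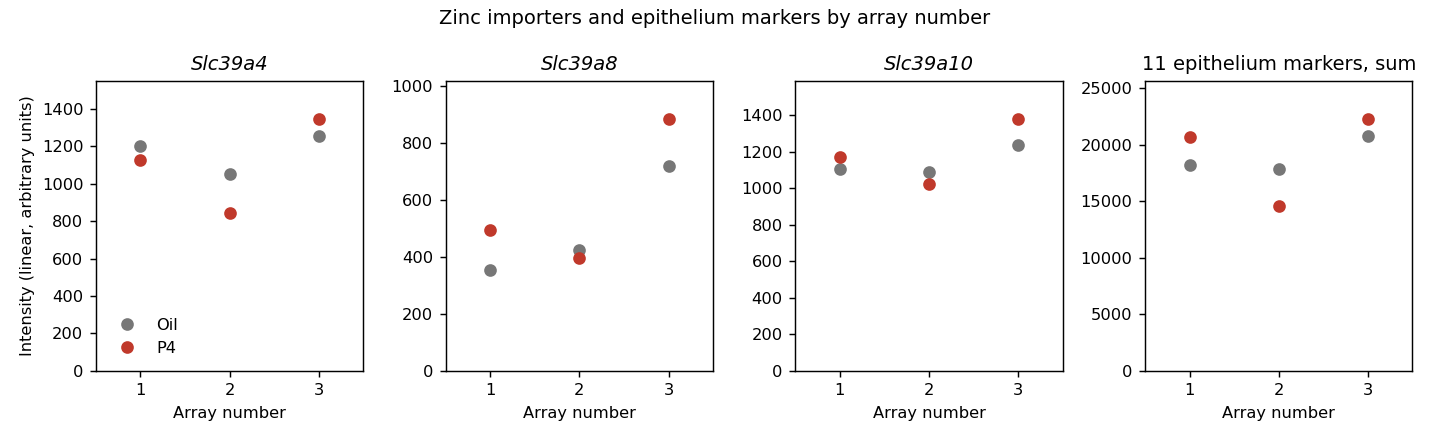
Linear intensity (vertical axes, from 0) of Slc39a4, Slc39a8 and Slc39a10 and the summed intensity of 11 epithelium markers by array number (horizontal axis), oil in grey and P4 in red. All 4 are highest on the array numbered 3 in both groups, and on the P4 arrays lowest on number 2; the numbers have no order in time.

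The rest of the zinc transporter family was measured for comparison: 19 genes, namely Mt4 and the Slc30 and Slc39 genes outside the 10. Of these 3 rose and 0 fell at a limma adjusted p under 0.05, beside 13% called and 6.08% higher among all genes. Their median difference was 0.12. At an unadjusted limma p under 0.05, 6 rose and 0 fell, beside 2165 higher and 2679 lower among all 18193 genes. With the array number as a block 5 rose, Mt4 and Slc39a2 being the added ones, beside 20.9% called and 9.29% higher among all genes. Slc39a6 (LIV-1), known as an estrogen-responsive importer of breast cancer cells, rose from 729 ± 45.8 to 1121 ± 6.24 (0.61 ± 0.08, adjusted p 0.00291). Its P4 arrays read 1115, 1127 and 1120, and 3 of its 4 probe sets were higher. Slc30a5, a ZnT of the secretory pathway, rose from 677 ± 26.8 to 915 ± 55.2 (0.43 ± 0.08, adjusted p 0.0132). Slc39a7, which releases zinc from the endoplasmic reticulum, rose from 883 ± 50.8 to 1157 ± 103 (0.38 ± 0.09, adjusted p 0.0321), measured only by a probe set open to cross-hybridisation. Slc39a2 read 101, 63.7 and 185 after oil and 246, 188 and 268 after P4. That is the largest family difference outside the metallothioneins, 1.005 ± 0.31, but the P4 and oil arrays nearly met and it missed the threshold (0.0708; 0.00496 with the block). Slc30a5 kept its call in 3 and Slc39a7 in 2 of the 6 fits with 1 array left out (adjusted p up to 0.0658 and 0.127, both without oil array 2), and the count of 3 was 1 without oil array 1, oil array 2 or P4 array 2.

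**Figure D5:**
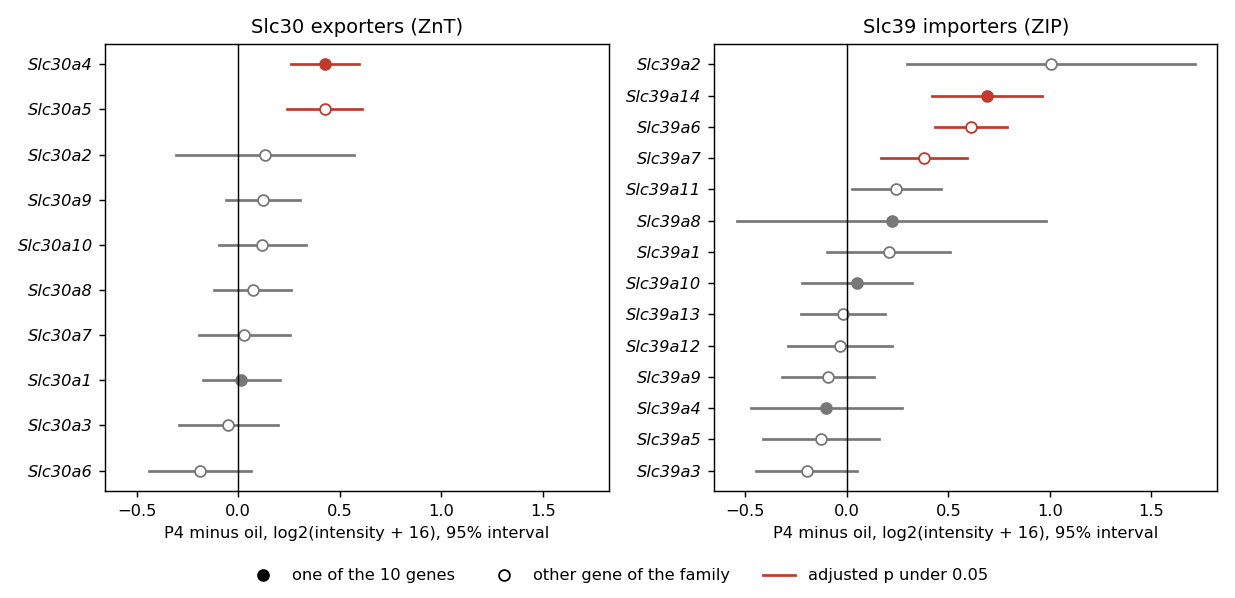
Log2 difference P4 minus oil (horizontal axes) with 95% interval for all measured Slc30 exporters (left) and Slc39 importers (right), ordered by size. Filled points are among the 10 genes and red marks a limma adjusted p under 0.05: 2 of 10 exporters and 3 of 14 importers are red, all higher.

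Counting both sets together, 2 of 10 exporters, 3 of 14 importers and 2 of 4 metallothioneins rose, and none of them fell, beside 6.08% higher and 6.94% lower among all genes. These counts are small and the families were not tested against other genes. The median difference was 0.10 for the exporters, 0.13 for the importers and 0.84 for the metallothioneins. No metallothionein was near that last value. Mt1 (1.45) and Mt2 (1.32) lay above it, and the much dimmer Mt3 (0.16) and Mt4 (0.36), which did not pass, lay below.

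Genes that varied most like the members over the 6 arrays were taken by Pearson's r of log2 values among all other genes, as a description. For Mt1 these were Hopx (r = 0.9997), a homeodomain protein, Med15 (0.997), a subunit of Mediator, and Stx18 (0.997), a syntaxin of the endoplasmic reticulum. Hopx read 403, 421 and 331 after oil and 1930, 1111 and 1226 after P4, the same order of arrays as Mt1. For Mt2 they were Polr1a (0.998), the largest subunit of RNA polymerase I, Stx18 (0.997) and the claudin Cldn23 (0.996). For Slc39a14 they were Ogfrl1 (0.992), Sacm1l (0.992) and Uap1 (0.991). With 6 arrays in separate groups, high r values of this kind arise for many genes that differ between groups. Sacm1l itself did not pass (0.13 ± 0.07, limma adjusted p 0.285). Med15 kept its call in 2, Polr1a in 1 and Uap1 in 0 of the 6 fits with 1 array left out.

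Lists of genes tied to known inducers of metallothioneins and of Slc39a14 were read in the same fit. Shares among all genes were 6.08% higher and 6.94% lower, and 9.29% and 11.6% with the array number as a block. At an unadjusted limma p under 0.05, 2165 of all 18193 genes were higher and 2679 lower. A list of 16 genes held the glucocorticoid receptor gene Nr3c1 and known targets of the receptor, and 5 of the 16 rose and 2 fell. The largest changes were the rises of Sgk1 (2.57 ± 0.14), Fkbp5 (2.55 ± 0.20) and Zbtb16 (2.01 ± 0.26). Among the targets Pdk4, a kinase that inhibits pyruvate dehydrogenase, fell from 254, 281 and 299 to 95.6, 99.6 and 92.3, with no overlap (-1.39 ± 0.09, limma adjusted p 0.000491). The other gene that fell was Nr3c1 itself (-0.52 ± 0.08, adjusted p 0.00556), named after its values were seen. The 9 that did not pass ran from Ddit4 (-0.11 ± 0.10) to Lcn2 (1.35 ± 1.01). Among these 9 were Tsc22d3 (0.11 ± 0.13) and Per1 (0.15 ± 0.10), all 4 named after their values were seen. Whether the receptor had a part in the rise of Mt1 and Mt2 was not tested. Of 18 genes of the acute phase and of the interleukin 6 response, which is known to induce Slc39a14 in liver, 1 rose and 1 fell (2 and 1 with the block). These were Il6 (1.27 ± 0.17), from a mean of 16.2 after oil, and Il6st, the gp130 receptor subunit (-0.37 ± 0.09), whose call held in 1 of the 6 fits with 1 array left out (adjusted p up to 0.12, without oil array 1) and was lost with scaling to the hybridisation controls (0.179). Of 17 measured genes of the oxidative stress response 3 rose and 0 fell (5 and 0 at an unadjusted p under 0.05). They were the mitochondrial dismutase Sod2 (0.54 ± 0.09) and Gclm and Gclc, which make glutathione (adjusted p 0.0465 each). Sod2 kept its call in all 6 fits with 1 array left out, Gclm in 1 (adjusted p up to 0.155, without oil array 1) and Gclc in 0 (up to 0.157, without oil array 2). The median differences of these 3 lists were 0.14, 0.15 and 0.12.

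The arrays carried the markers of a uterus. Krt8 of epithelium read 1779 to 3946, Vim of stroma 5293 to 7542 and Myh11 of smooth muscle 5511 to 7442. The array medians of intensity ran from 117 to 123. The sum of 11 epithelium markers overlapped between groups, at 17874 to 20739 after oil and 14551 to 22291 after P4. Of the 11, 1 was called higher and 0 lower, beside 6.08% and 6.94% of all genes. At an unadjusted limma p under 0.05, 2 were higher and 3 lower, beside 2165 and 2679 of all 18193 genes. With the array number as a block 2 were higher and 4 lower, beside 9.29% and 11.6% of all genes. The sum of 10 endothelium markers was lower after P4, at 7344 to 7382 against 8132 to 9892 after oil, with 2 of the 10 genes called lower. These were Cldn5, called in all 6 fits with 1 array left out, and Tek, called in 1 of them (adjusted p up to 0.132, without oil array 2) and not with scaling to the hybridisation controls (0.132), both named after their values were seen. The sum of 6 fat markers was 2255 to 4061 after oil and 716 to 2281 after P4, with 0 called and 4 lower at an unadjusted limma p under 0.05 or with the array number as a block. Sums of 10 smooth muscle markers (48698 to 48812 and 44543 to 52422), 12 stroma markers (57101 to 63607 and 53475 to 65255), 10 leukocyte markers (6100 to 13513 and 4723 to 12321), 8 gland markers (2151 to 4647 and 3158 to 4972), 7 mesothelium markers (2495 to 2674 and 2371 to 2514) and 7 ovary or oviduct markers (713 to 782 and 658 to 798) overlapped between groups. The part of these markers in the rise of Mt1, Mt2, Slc30a4 and Slc39a14 was not tested.

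The 4 calls held with any 1 array left out, with adjusted p up to 0.0473 for Slc30a4 and 0.0369 for Slc39a14. With both arrays numbered 2 left out, Mt1 was the 1 member still called, and Mt2 (0.0701), Slc30a4 (0.116) and Slc39a14 (0.0793) missed the threshold at differences of 1.42, 0.45 and 0.81.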

How the data were processed

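Total RNA of uterine horns was labelled as biotinylated cRNA and hybridised to expression arrays, per the labels' protocols. The deposited table gives an intensity on a linear scale for each of 45101 probe sets on every array (64 are controls). The sources used here do not say how the authors summarised and scaled it. Because the array medians lay within 0.0595 log2 of each other, log2(intensity + 16) was used without renormalizing. Gene names came from the platform annotation. A gene is represented by its probe set with the highest mean (18193 genes); all 34945 probe sets with 1 symbol were fitted separately. The difference P4 minus oil was fitted over the 6 arrays with no covariate in limma 3.58.1 (R 4.3.3), with trended empirical Bayes moderation, and p-values were adjusted by Benjamini-Hochberg across the whole table (threshold 0.05). The number of arrays limits the precision. Both groups carry the numbers 1 to 3. Same-numbered arrays deviated together (correlations of 0.53, 0.13 and 0.64, each above 0.1), and on that basis, which is from the data and not from the labels, the block was run beside the fit without it, which gives the values reported unless the block is named. Oil array 2 correlated more with P4 array 1 (0.29) than with its own number. Members and lists were chosen with earlier results of these data known. Named are all members, all called genes of the zinc transporter list, up to 4 called genes of each other list by size (others are marked as named after their values were seen), and the 3 most alike genes for Mt1, Mt2 and Slc39a14. On simulated data of 18193 genes with 200 changed, the fit recovered 32.6% of genes changed by 0.5 log2, 80.7% by 1 and 97.0% by 2, with 4.2% false calls. The simulated noise was independent between arrays, while same-numbered arrays here deviated together and 2368 genes were called. These rates therefore need not hold for the real arrays. Promoters came from RefSeq, GRCm38.p6. Alternatives were other pseudocounts, normalizations, probe set choices, filters, moderation, array weights, the block and arrays left out. Figures used matplotlib 3.10.9.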

Additional observations from a re-analysis of the deposited data

How the results depend on the processing

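The number of arrays, 3 a group, limits every value. All 4 calls among the 10 genes (all higher) held under both other pseudocounts (1 and 50), quantile normalization, median centring, scaling to the hybridisation controls, both filters on dim genes, other moderation, array weights and the replicate block. Without probe sets open to cross-hybridisation Mt1 missed the threshold (0.54, adjusted p 0.0579), and with the mean of all probe sets Slc39a14 did. The replicate block changed no call among the 10 genes; it gave 3801 genes in all against 2368, 5 instead of 3 in the rest of the zinc transporter family and 6 instead of 5 member probe sets. Scaling to the hybridisation controls shifted the median over all genes upward by 0.13 log2, gave 75.5% higher among all calls against 46.7%, and called 5 genes of the family. With 1 array left out there were 993 to 2302 calls among all genes, 4 among the members, 1 to 4 in the family and 3 to 5 among member probe sets. Leaving out both arrays numbered 2 gave 171, 1, 0 and 1 (limma). In the family 4 genes were then higher and 0 lower at an unadjusted limma p under 0.05. All genes were not counted at that p in this fit. Leaving out both arrays numbered 1 (1054, 3, 1 and 3) or 3 (1434, 3, 3 and 3) was chosen after seeing the data, and Slc30a4 then missed the threshold (adjusted p 0.0715 and 0.0501). Signs turned only for members that were not called. Slc39a8, at 0.22 over all 6 arrays, turned to -0.10 without P4 array 3. The others that turned were near 0. Slc39a4 went to 0.026 with scaling to the controls and 0.0043 without number 2. Slc30a1 went to -0.039 and Slc39a10 to -0.0072 with the mean of all probe sets. Slc30a1 went to -0.045 without number 1 and Slc39a10 to -0.0037 without number 3. With 1 array left out Slc30a1 ran from -0.049 to 0.058, Slc39a4 from -0.25 to 0.077, Slc39a8 from -0.10 to 0.51 and Slc39a10 from -0.060 to 0.15. The cause of these shifts was not tested.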

Other observations

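Genes of other metals, from lists chosen with earlier results of these data known, changed in both directions after P4. Of 19 measured copper genes 2 rose and 2 fell at a limma adjusted p under 0.05, with a median difference of 0.08. Among all genes 6.08% were higher and 6.94% lower. With the array number as a block 5 copper genes were higher and 3 lower, beside 9.29% and 11.6% of all genes. Atp7b, a copper-exporting ATPase, read 76.4, 70.0 and 80.7 after oil and 184, 212 and 153 after P4, with no overlap (1.11 ± 0.12, adjusted p 0.00198). Sco2, a copper chaperone of cytochrome oxidase, rose by 0.65 ± 0.08. Slc31a2, a copper transporter of endosomes, fell from 1219 ± 91.2 to 704 ± 78.0 (-0.78 ± 0.10, adjusted p 0.00386), and the extracellular dismutase Sod3 was lower (-0.50 ± 0.10), a call kept in 2 of the 6 fits with 1 array left out (adjusted p up to 0.0574, without oil array 1) and lost with scaling to the hybridisation controls (0.0706).

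Of 19 measured iron genes 3 rose and 1 fell, with a median of 0.06, beside 6.08% higher and 6.94% lower among all genes. With the block 5 rose and 1 fell, beside 9.29% higher and 11.6% lower among all genes. Slc40a1, the iron exporter ferroportin, read 737, 985 and 1381 after oil and 246, 343 and 508 after P4, a difference of -1.47 ± 0.29 (limma adjusted p 0.0146) that kept its call in 4 of the 6 fits with 1 array left out (adjusted p up to 0.0624, without oil array 2). The 3 rises were those of Aco1, an iron-regulatory protein (0.53 ± 0.10, kept in 3 of 6 such fits, adjusted p up to 0.0668), the iron chaperone Pcbp1 (0.38 ± 0.07) and the divalent metal transporter Slc11a2 (0.37 ± 0.09, kept in 2 of 6, up to 0.133). Tfrc, the transferrin receptor, read 421, 407 and 938 after oil and 774, 734 and 1279 after P4, highest on the array numbered 3 in both groups like the importers Slc39a4, Slc39a8 and Slc39a10, and all 3 same-numbered pairs were higher after P4. Its difference of 0.71 ± 0.33 did not pass without the block (limma adjusted p 0.231) and passed with it (0.00321). Tfrc was named after its values were seen.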
